A study of Homo sapiens with 2 samples.

Results

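Retinoic acid receptor and metabolism genes were examined for NeuroD1 binding in IMR-32 cells, a human neuroblastoma line with amplified MYCN. The 10 genes were RARA, RARB, RARG, RXRA, RXRB, RXRG, CRABP1, CRABP2, CYP26A1 and DHRS3, taken as a fixed list of receptors, binding proteins and enzymes. A gene was counted with each peak that overlapped its RefSeq body or lay up to 20 kb from either end, which gave 6 peaks of the 6183 peaks in the list. ChIP-seq recovers the DNA fragments that a chosen protein sits on by means of an antibody, and a peak is a site where these fragments pile up above the local level. The samples were 1 NeuroD1 ChIP library and 1 input library, both from wild-type IMR-32 cells with no treatment named. The input was not analysed here. With a single ChIP library there is no replicate check and no test between groups, and all intervals cover counting error only. The labels name a NeuroD1 antibody, whereas the supplementary ChIP-seq methods name an H3K27Ac antibody, and the list was used as it is labelled. The design text of the series and the legend of the study's ChIP-PCR also name NeuroD1.

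Retinoic acid, made from vitamin A, enters the nucleus and binds receptors of the RAR family, which sit on DNA as dimers with RXR receptors. CRABP proteins carry retinoic acid in the cytoplasm, CYP26 enzymes break it down, and DHRS3 turns its precursor retinaldehyde back into retinol. In neuroblastoma, retinoic acid drives differentiation into neuron-like cells and 13-cis-retinoic acid is part of therapy. NeuroD1 is a neurogenic factor of the basic helix-loop-helix class, which binds the E-box CANNTG as a dimer with an E protein.

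NeuroD1 peaks lay within 20 kb of 3 of the 10 genes, RARA, RXRA and CRABP1. This was 30.0% of the list, against 29.7% of the 20037 protein-coding genes of RefSeq by the same rule, so the count was near the background. At RARA, the peaks marked 2 of its 3 listed start sites, at RXRA a site inside the gene, and at CRABP1 both flanks. RARB, RARG, RXRB, RXRG, CRABP2, CYP26A1 and DHRS3 had no peak within 20 kb. In the gene body itself, 2 of the 10 genes had a peak, against 16.0% of protein-coding genes.

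The start regions of RARA are shown because 2 of them were the only start regions among the 10 genes that a NeuroD1 peak overlapped, with the third beside them. They come from RefSeq of GRCh38.p14, which is the build of the peak list (hg38 in the submitters' processing notes). Each sequence runs along the forward strand from 250 bases before the start site to 50 bases from it on, and capitals mark each CANNTG.
RARA start 1, chr17:40308930-40309229, with a peak: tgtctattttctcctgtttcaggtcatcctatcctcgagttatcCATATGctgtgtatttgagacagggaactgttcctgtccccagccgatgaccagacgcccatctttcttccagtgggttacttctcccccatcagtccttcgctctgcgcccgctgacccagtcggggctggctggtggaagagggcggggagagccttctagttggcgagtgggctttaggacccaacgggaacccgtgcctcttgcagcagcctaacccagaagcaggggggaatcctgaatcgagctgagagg
RARA start 2, chr17:40317995-40318294, with a peak: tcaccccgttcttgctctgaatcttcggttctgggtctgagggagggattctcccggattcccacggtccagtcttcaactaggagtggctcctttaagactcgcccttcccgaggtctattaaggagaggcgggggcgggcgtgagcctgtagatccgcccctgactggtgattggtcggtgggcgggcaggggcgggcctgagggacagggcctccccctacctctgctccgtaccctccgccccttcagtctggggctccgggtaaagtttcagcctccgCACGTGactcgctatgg
RARA start 3, chr17:40341916-40342215, without a peak: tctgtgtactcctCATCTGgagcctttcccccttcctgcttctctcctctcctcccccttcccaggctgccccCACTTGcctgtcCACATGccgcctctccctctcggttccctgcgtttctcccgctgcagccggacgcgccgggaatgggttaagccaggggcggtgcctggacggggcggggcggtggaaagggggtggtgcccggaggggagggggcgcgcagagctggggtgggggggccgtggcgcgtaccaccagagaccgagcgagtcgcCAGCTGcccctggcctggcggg
Start 1 held a single E-box, CATATG, beginning 206 bp upstream of the start site. Start 2 also held a single E-box, CACGTG, 33 bp downstream of the start site, the form that MYC and MAX dimers are known to bind. Start 3 held 4 E-boxes, of which CATCTG began 237 bp upstream and CAGCTG 28 bp downstream. CATCTG and CAGCTG are forms that neurogenic factors of this class are known to bind.

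RARA, which encodes the alpha receptor of retinoic acid, held 3 NeuroD1 peaks in its body on chromosome 17 from 40309180 to 40357643. The peak at start 1, from 40309085 to 40309264, had its summit 35 bp downstream of the start site. At the summit, 15 ChIP reads were solved from the deposited values (8.39 to 24.7, the exact Poisson interval at 95%), over a local background of 1.46. Fold enrichment is the ratio of ChIP pileup to local background after adding 1 to both, and it was 6.38 here with a −log10 q of 6.43. The peak at start 2, from 40318033 to 40318267, had its summit 117 bp upstream of that start site and also overlapped LOC105371934. It reached a fold enrichment of 7.23 (−log10 q of 7.26), with 14 reads (7.65 to 23.5) over a background of 1.04. This is the genome-wide level, the lowest that the solution allows, and 33.8% of all peaks had it. The third peak, from 40350540 to 40350685, lay 8.49 kb downstream of start 3. It was the weakest of the 3, with 10 reads (4.79 to 18.4), a fold enrichment of 4.98 and 2.92 as its −log10 q. The read intervals of the 3 RARA peaks overlapped, so their order was not resolved at this depth.

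Neither peak at a RARA start held an E-box in the sequence examined. The peak at start 2 lay wholly in the window, and its 235 bases had no CANNTG, with CACGTG 10 bases beyond its end. The same stretch held a CANNTG in 60.1% of all start windows. Of the peak at start 1, 145 of 180 bases were held, without a CANNTG, and CATATG lay 105 bases before the peak. Of all start windows, 44.5% had a CANNTG in that stretch. With 50 bp on each side of the summit, 1638 peaks of the whole list were held by a start window, and 27.1% of them had a CANNTG, against 33.1% of the middle 101 bases of all start windows. These shares were not matched for position in the window or for GC content. The median GC content was 68.0% in windows with a peak and 57.3% in those without. Peaks outside start windows, which are most of the list, were not examined for motifs here. The start 2 peak of RARA was the only member peak that could be examined in this way, and it had none. A missing match says only that these letters are not in these bases. The paper reports that NeuroD1 motifs were enriched at its NeuroD1 binding sites, from a motif search that was not repeated here.

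A peak overlapped 8.28% of the 34943 start windows in RefSeq, and 2 of the 20 windows of the 10 genes, both at RARA. Among the genes with several listed start windows, 5.29% of 5165 had a peak at 2 or more of them. That share also counts genes where 1 peak overlapped 2 windows, whereas the 2 RARA windows had separate peaks. RARA lies on chromosome 17, where 47.1% of the protein-coding genes had a peak within 20 kb. Of the protein-coding genes from 0.5 to 2 times as long as RARA, 31.2% did. CDC6, which helps to load the replicative helicase, also lay within 20 kb of both start peaks, and GJD3 within 20 kb of the third.

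RXRA encodes the alpha form of the RXR receptor, the shared dimer partner of many nuclear receptors. It held 1 peak, on chromosome 9 from 134365940 to 134366172. The summit lay 39.6 kb inside the gene from its first start and 13.3 kb upstream of its second start. It was covered by 15 reads (8.39 to 24.7) over a background of 1.04, and its fold enrichment was 7.71 (−log10 q of 8.34). This was the highest fold enrichment of the 6 peaks, although its read interval overlapped those of the 3 RARA peaks. No other gene was overlapped, and neither start window of RXRA had a peak. Whether the peak lies in an intron was not analysed here, since the annotation used gives no exons. Of the protein-coding genes of similar length, 33.4% had a peak within 20 kb, and on chromosome 9 the share was 30.5%.

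**Figure D1:**
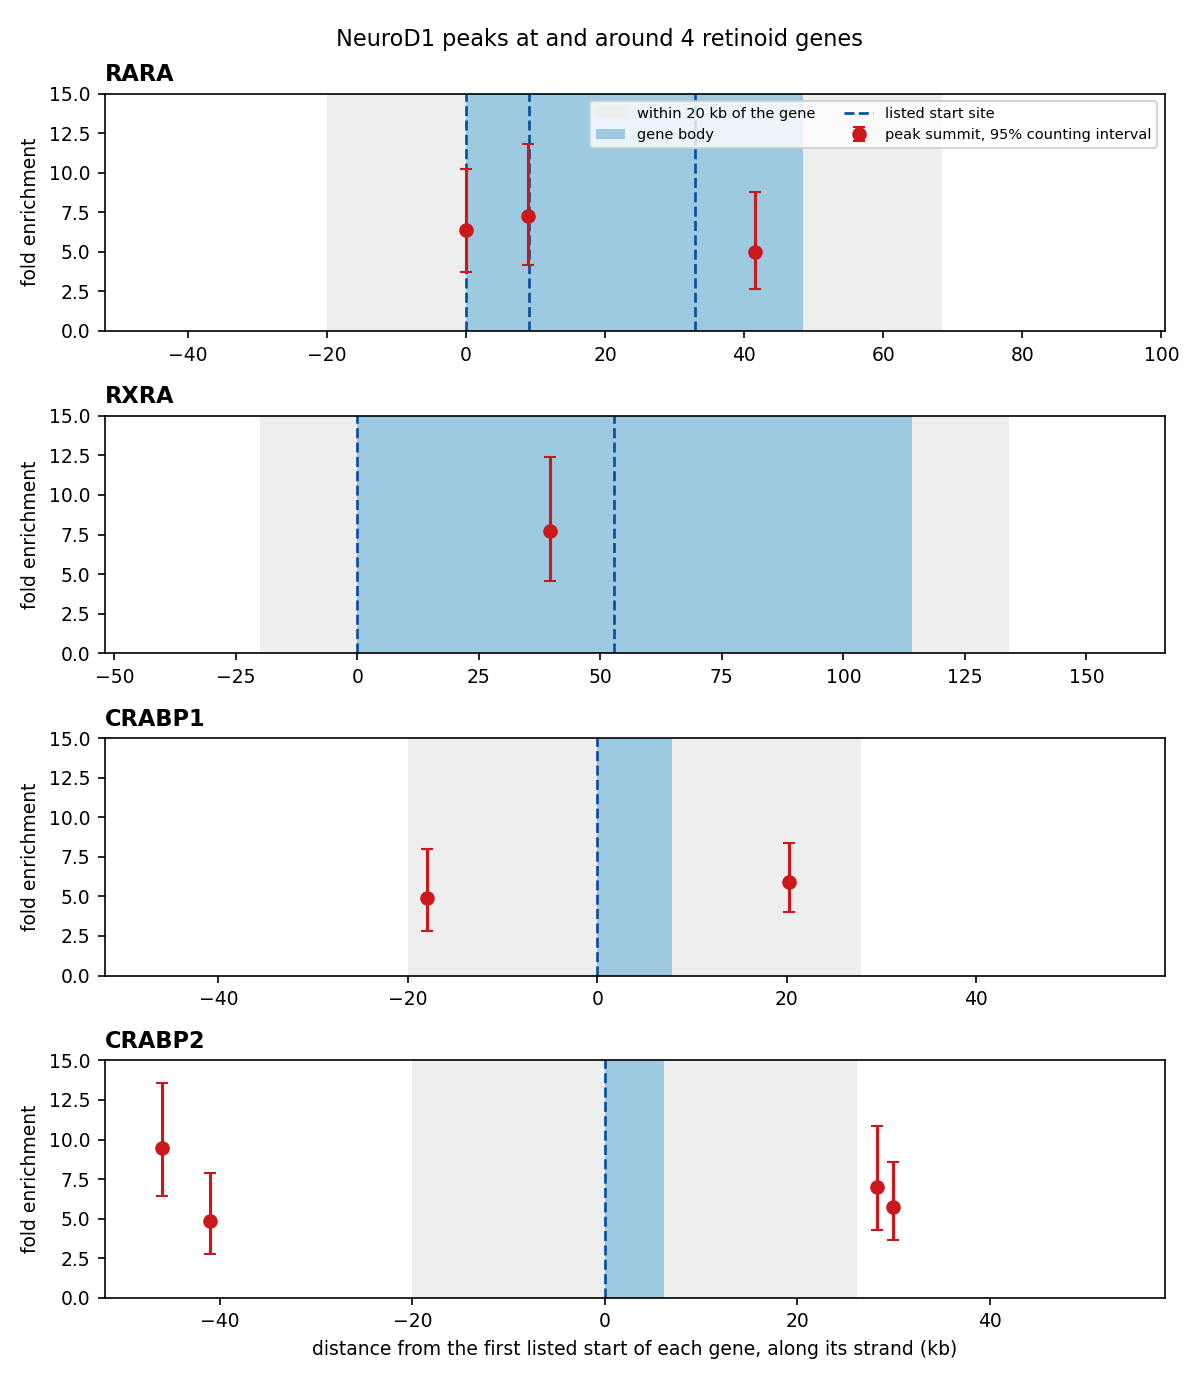
Fold enrichment of each NeuroD1 peak within 50 kb (points, with 95% counting intervals) against its distance in kb from the first start of RARA, RXRA, CRABP1 or CRABP2, along the gene's strand. Blue marks the gene body, grey the 20 kb on each side and dashed lines the listed starts. The first 2 RARA points sit on starts, the RXRA point inside the gene, the CRABP1 points at -18.0 and 20.3 kb, and the 4 CRABP2 points outside the grey.

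CRABP1, a cytoplasmic carrier of retinoic acid, had no peak in its body, on chromosome 15 from 78340353 to 78348225, and 1 peak on either side. The upstream peak, from 78322280 to 78322626, lay 17.7 kb from the gene. It had 14 reads (7.65 to 23.5) over a background of 2.0, and its fold enrichment was 4.91 (−log10 q of 3.98). The downstream peak, from 78360468 to 78360748, lay 12.2 kb from the gene and had a fold enrichment of 5.88. Its summit was covered by 29 reads (19.4 to 41.6) over a background of 4.0. This background was the highest of the 6 peaks and above the 95th percentile of the list, 3.0. The −log10 q of the downstream peak, 11.0, was the highest among the 6 peaks, although its fold enrichment was below those of RXRA and of both RARA starts. Its read interval was clear of that of the third RARA peak, the only one of the 15 pairs of peaks without overlap. The background of that RARA peak was lower, at 1.168. In fold enrichment their intervals overlapped, with 4.007 to 8.364 for the CRABP1 peak and 2.629 to 8.775 for the RARA peak. Neither CRABP1 peak overlapped a gene, and no other protein-coding gene lay within 20 kb of them.

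CRABP2, the other carrier, which hands retinoic acid to the receptors in the nucleus, lay just outside the limit. Its nearest peaks were 22.0 and 23.6 kb downstream of the gene on chromosome 1. The peak at 22.0 kb had 18 reads (10.7 to 28.4), and its fold enrichment was 6.997 (−log10 q of 8.53). The peak at 23.6 kb had 21 reads (13.0 to 32.1), and its fold enrichment was 5.72 (−log10 q of 7.65). Both lay in NES, which encodes the intermediate filament nestin of neural progenitors, and the nearer one overlapped a start of NES. Further peaks, 41.0 and 46.0 kb upstream of CRABP2, lay in HDGF. Within 50 kb, CRABP2 thus had 4 peaks, none in its own body, and 4 of the 10 genes had a peak at that distance, as did 39.9% of all protein-coding genes.

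Within the whole list, the 6 peaks had middle to low values of fold enrichment, but the counting interval of each included the list median. Their fold enrichment ran from 4.91 to 7.71 with a median of 6.13, against a median of 6.79 and quartiles of 5.79 and 8.68 over all peaks. Of the 6, 4 lay below the median of the list and 0 above its upper quartile, counts too small to be read as a trait of these genes. By fold enrichment the RXRA peak ranked 2152 of 6183, RARA start 2 ranked 2575 and RARA start 1 ranked 3659. The CRABP1 downstream peak ranked 4451, the third RARA peak 5461 and the CRABP1 upstream peak 5494. By −log10 q the CRABP1 downstream peak moved up to rank 1890, ahead of RXRA at rank 2710. The counting interval of the RXRA peak, from 4.53 to 12.4, covered ranks 461 to 5807, so the ranks of single peaks were loosely set.

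The receptors without a peak differed in the gap to the nearest peak. RARB, a receptor gene that retinoic acid itself induces, spans 769 kb on chromosome 3, and its nearest peak lay 511 kb downstream, while 81.7% of protein-coding genes had a peak as near or nearer. Of the 507 protein-coding genes from 0.5 to 2 times as long, 48.5% had a peak within 20 kb. RXRG on chromosome 1 was 382 kb and RXRB on chromosome 6 was 494 kb from the nearest peak, and the shares of genes as near or nearer were 76.4% and 80.9%. RARG on chromosome 12 was nearer, with a pair of peaks from 89.0 kb upstream, in the gene AAAS, and 48.9% of protein-coding genes had a peak as near or nearer.

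Neither enzyme gene had a peak within 100 kb. CYP26A1, which oxidises retinoic acid and is induced by it, was 499 kb from the nearest peak on chromosome 10, with 81.2% of genes as near or nearer. DHRS3 on chromosome 1 was 1089 kb from the nearest peak, and 91.2% of protein-coding genes had a peak as near or nearer. The neighbouring genes VPS13D and AADACL4 were 751 and 1165 kb from a peak, so the gap was not particular to DHRS3. RARB, RXRB, RXRG, CYP26A1 and DHRS3 made up the 5 members without a peak within 100 kb, so 5 of the 10 genes had one, near the 50.8% of protein-coding genes with a peak at that distance. A site with too few reads to be called cannot be told from an unbound site in a peak list.

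RARB and CYP26A1 were the members with a retinoic acid response element of the DR5 kind in a start window. This element is a direct repeat of a hexamer with 5 bases between, searched on both strands. The hexamers allowed were AGGTCA and GGGTCA, as well as AGTTCA and also GGTTCA. The sequences are shown to set these elements beside the missing peaks, with the hexamers in capitals and 6 flanking bases on each side, along the forward strand of GRCh38.p14.
RARB start 3, chr3:25428204-25428232: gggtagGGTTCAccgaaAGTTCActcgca
CYP26A1 start 2, chr10:93073797-93073825: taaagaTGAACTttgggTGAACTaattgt
The RARB element began 53 bp upstream of the third listed start of the gene, and the CYP26A1 element 90 bp upstream of the second. A DR5 element lay in 2 of the 20 windows of the 10 genes and in 0.0887% of all start windows, but the members include known targets of retinoic acid, so this was fixed by their choice. Neither window had a peak. In the windows with a peak anywhere in the genome, 3 of 2895 (0.104%) held a DR5 element, against 0.0874% of those without a peak. A count of 3 is too small to compare these shares. With 2 bases between the hexamers (DR2), 0 of the 20 windows and 0.0372% of all windows had an element.

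E-boxes were common in the start windows whether or not NeuroD1 was called there. CANNTG was found in 13 of the 20 member windows (65.0%) and in 68.7% of all windows. CAGCTG was found in 4 member windows, among them the second RXRA start and the first CYP26A1 start, and in 17.9% of all windows. CAGATG or CATCTG was also found in 4, against 14.7% of all windows. CACGTG, the form at RARA start 2, was in 7.23% of all windows. Across RefSeq, CANNTG was in 56.7% of the windows with a peak and 69.8% of those without, and CAGATG or CATCTG in 8.7% and 15.3%. The other forms went the other way or differed little, with CACGTG in 10.3% and 6.96%, and CAGCTG in 18.5% and 17.9%. Windows with a peak had a median GC content of 68.0%, against 57.3% without. The RARA windows with a peak had 57.0% and 63.0%, and the RARA window without a peak 71.0%.

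Other genes of the retinoid pathway were counted by the same rule in 7 lists, chosen with earlier results of these data known. Of 66 genes, 22 had a peak within 20 kb (33.3%), again near the 29.7% of all protein-coding genes. Uptake and transport genes had a peak at 2 of 7, RBP4 and STRA6, the carrier of retinol in blood and its receptor. That was 28.6%, against a mean of 28.8% for protein-coding genes of similar length. The STRA6 peak, 12.7 kb from the gene, had a fold enrichment of 11.0 and 26 reads (16.98 to 38.1). Of 14 genes for synthesis, 1 had a peak (7.14%, with 29.9% at similar length), the retinol dehydrogenase RDH14 with a fold enrichment of 5.23. The aldehyde dehydrogenases ALDH1A1, ALDH1A2 and ALDH1A3, which make retinoic acid, had none. Of the 2 other breakdown genes, CYP26B1 held a peak with a fold enrichment of 4.66 and CYP26C1 had none. At similar length the mean share was 29.05%.

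Co-regulators had a peak at 8 of 11 (72.7%), and orphan receptors on related elements at 5 of 8 (62.5%). The co-regulator genes are long, with a median of 156 kb, and protein-coding genes of similar length had a peak in 34.8% on average. For the orphan receptors, with a median length of 39.6 kb, that share was 33.1%. In the body itself, 4 of the 11 co-regulators and 3 of the 8 orphan receptors had a peak. Of all protein-coding genes, 16.0% did, a share not matched for length. These shares are descriptions, and no list was tested. ZNF423, a zinc finger cofactor of the RAR-RXR dimer, had 7 peaks, 5 of them in its body. Its highest fold enrichment, 14.46, came from a peak 14.52 kb outside the gene. NCOA1 held a peak at a start window with a fold enrichment of 10.3. Among the co-regulators, NCOR1, NCOA3 and PRAME had none. The orphan receptors with a peak included RORA, NR2C2, NR2F2 and NR2F6, and NR2F2 held a peak with a fold enrichment of 8.78 and 18 reads (10.7 to 28.4).

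Other partners of RXR had a peak at 3 of 11 (27.3%), namely PPARD, NR1H3 and NR4A1. Protein-coding genes of similar length had a peak in 31.9% on average. NR4A1, an immediate early orphan receptor, had 4 peaks, 2 of them in its body. Its highest fold enrichment, 12.04, came from a peak 10.3 kb outside the gene. Known targets of retinoic acid had a peak at 2 of 13 (15.4%), CYP1B1 and MEIS1, against 29.0% on average at similar length. MEIS1 had 10 peaks, but 8 of them had a background above 10 and up to 67.0, in a part of chromosome 2 with a raised background. Its highest fold enrichment, 9.17, came from a peak with a background of 1.46. HOXB1, RET and TGM2 had no peak within 20 kb.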

How the data were processed

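NeuroD1 ChIP-seq peaks of 1 IMR-32 library were used. The submitters' processing notes list BWA 0.7.17, MACS2 2.2.7 and hg38, while the peak names carry MACS3. Which control and q threshold were used is not given in the sources used here. The authors deposited, for each peak, its position and summit, the fold enrichment (a ratio), the −log10 p and the −log10 q at the summit. The deposited score is 10 times the −log10 q without decimals, and the last deposited column is the ratio of fold enrichment to width. Total reads are unknown.

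The reads and the background behind a summit were worked out by inverting the Poisson p-value of MACS, given the fold enrichment of the same peak. The background that recurred over 200 distinct peaks, 1.04, was taken as the genome-wide level, and the spacing of the pileups at it, 0.98, as the weight of 1 read. All peaks were solved within 0.01 of the −log10 p (100.0%). On 1000 simulated peaks the reads were recovered in 100.0%. These peaks were made with the same formulas, so this checks the inversion only, not whether the peak caller used this model. Their backgrounds were low, so backgrounds as high as those at MEIS1, up to 67.0, were not covered. Intervals are exact Poisson intervals at 95%. Fold intervals hold the background fixed.

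Genes (59679, of which 20037 protein-coding) and start windows came from RefSeq of GRCh38.p14, and all 10 members and 66 pathway genes matched by symbol. Windows on opposite strands that overlapped were reverse complements in 1985 of 1985 cases. All 10 members are named, with the genes at their peaks and pathway genes of fixed lists that had a peak. Single results for some pathway genes are not reported here. Members and lists were chosen with earlier results of these data known. The shares among genes of 0.5 to 2 times the length, the start windows and the CACGTG, DR5 and DR2 searches were added after the data were seen. E-boxes at peaks outside start windows were not examined, since no genome sequence was used. The work was done in Python 3.11.15 with scipy 1.17.1, pandas 2.3.3 and numpy 2.4.6, and the plots with matplotlib 3.10.9.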

Additional observations from a re-analysis of the deposited data

How the results depend on the processing

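The number of members with a peak was 2 with the gene body alone or 5 kb around it and 4 with 50 kb, when CRABP2 was added, against 3 with 20 kb. It was 3 with a −log10 q of at least 5, with at least 5 for fold enrichment and when the summit itself had to lie within 20 kb. Of the protein-coding genes, 22.5% had a peak within 5 kb. The number of peaks rose from 6 to 10 with 50 kb, since more sequence was searched. It was 4 under each stricter list and with the gene body or 5 kb. By −log10 q in place of fold enrichment, the best rank went from 2575 to 3231 for RARA, from 2152 to 2710 for RXRA and from 4451 to 1890 for CRABP1. With 25 bp in place of 50 bp on each side of the summit, the single member peak examined still had no CANNTG. No paired analysis was possible because a single ChIP library was made. With 10 to 29 reads at the summits and no replicate, differences among the 6 peaks are mostly within counting error.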

Other observations

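Several peaks between 20 and 100 kb from a member lay at starts of other genes. Others did not, such as a peak 51.7 kb downstream of RXRA with a fold enrichment of 8.06. Peaks at starts are common in the list, where start windows held 1638 of 6183 summits with 50 bp on each side. Upstream of RARG, a peak overlapped the start of AAAS, which encodes a nuclear pore protein, with a fold enrichment of 6.54 and 19 reads. A second AAAS peak beside it had a fold enrichment of 8.37 and 20 reads. Downstream of RARA, a peak 60.2 kb away overlapped the start of TOP2A, the topoisomerase of dividing cells, with a fold enrichment of 8.60 and 18 reads. Downstream of CRABP1, a peak 89.7 kb away overlapped a start of IREB2, a regulator of iron metabolism, with a fold enrichment of 7.85 and 23 reads. Upstream of CRABP2, the peak at a start of HDGF had a fold enrichment of 9.48 and 28 reads (18.6 to 40.5), the highest fold enrichment within 100 kb of any of the 10 genes.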
